A study of Mus musculus with 28 samples.

Results

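The transcription factor genes *Meox1*, *Meox2*, *Nkx3-2*, *Uncx*, *Foxc1*, *Foxc2*, *Twist1* and *Tcf15* were followed through sorted cells of the vertebral column of E12.5 mouse embryos, 8 genes of the 13373 that could be tested. They were taken by symbol, through the platform annotation of the array probes. Of their 10 probes 9 passed the detection filter, and each gene kept at least 1 probe.

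Cells had been sorted by EGFP, the green fluorescent protein, which the lines carry in *Pax1* or *Pax9*, and their RNA was hybridised to 28 Illumina MouseWG-6 arrays. EGFP(+) cells came from 5 genotypes, *Pax1-/-Pax9-/-* (3 replicates), *Pax1-/-Pax9+/-* (3), *Pax1-/-* (5), *Pax1+/-* (5) and *Pax1 WT:+/EGFP* (5), and 3 replicates hold EGFP(-) cells. In *Pax1 WT:+/EGFP*, the wild-type comparison, EGFP follows a functional *Pax1* on one allele, whereas in the null alleles of *Pax1* and *Pax9* EGFP interrupts the paired box, so that cells of the compound mutants carry EGFP from both loci and all other EGFP(+) cells from *Pax1* alone. The labels give the strain as hybrid 129Sv/C57BL/6/129X1/129S1 and leave the genotype of the EGFP(-) cells out, which the study's text places in *Pax1 WT:+/EGFP*. Each replicate pooled the vertebral columns of a pair of embryos. A sorted population is defined by EGFP from the *Pax* loci and not by cell type, and fewer cells of a type and less RNA per cell cannot be told apart in such RNA.

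The sclerotome is the ventral part of the somite, from which vertebrae, ribs and intervertebral discs arise. Hedgehog signals of the notochord and floor plate set it up, and the paired box factors Pax1 and Pax9 act in its ventral cells. *Meox1* and *Meox2* encode homeobox factors of the whole somite which together are needed for vertebral patterning. *Foxc1* and *Foxc2* encode forkhead factors of the paraxial mesoderm with overlapping roles in somite formation and vertebral growth. *Twist1* and *Tcf15* (paraxis) encode basic helix-loop-helix (bHLH) factors, one of mesenchyme and the other of somite epithelium. *Nkx3-2* (Bapx1) encodes a homeobox repressor that lies downstream of Pax1 and Pax9 and promotes chondrogenesis, and *Uncx* a homeobox factor of the caudal half-somite that is needed for pedicles and proximal ribs.

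In RefSeq (GRCm38.p6) *Meox1* lies at chr11:101877510-101894354, *Meox2* at chr12:37108540-37179534, *Twist1* on the same chromosome at chr12:33957671-33959831, *Foxc1* at chr13:31806646-31810635 and *Foxc2* at chr8:121116171-121118895. *Tcf15* lies at chr2:152143056-152149097, and *Nkx3-2* (chr5:41761483-41764220) and *Uncx* (chr5:139543865-139548179) share chromosome 5. Promoter windows of 300 bases were at hand for 5 of the 8 genes, and those of the 3 that were measured well above background and called in the comparisons below are shown. Capitals mark an E-box, the letters CANNTG that bHLH factors such as Twist1 and Tcf15 bind, searched on both strands.
*Meox2*, chr12:37108290-37108589, plus strand: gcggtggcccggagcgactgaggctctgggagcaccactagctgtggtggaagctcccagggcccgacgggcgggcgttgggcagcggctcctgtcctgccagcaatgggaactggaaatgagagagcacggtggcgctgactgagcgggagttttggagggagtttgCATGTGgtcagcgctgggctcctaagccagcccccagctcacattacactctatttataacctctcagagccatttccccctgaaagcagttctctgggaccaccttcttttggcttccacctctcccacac
*Twist1*, chr12:33957421-33957720, plus strand: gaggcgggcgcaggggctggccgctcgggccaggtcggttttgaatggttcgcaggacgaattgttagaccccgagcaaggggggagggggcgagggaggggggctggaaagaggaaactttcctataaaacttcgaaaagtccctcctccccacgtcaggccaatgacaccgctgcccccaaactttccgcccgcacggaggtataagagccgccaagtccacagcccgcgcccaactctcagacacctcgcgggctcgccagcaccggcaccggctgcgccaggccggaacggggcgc
*Foxc1*, chr13:31806396-31806695, plus strand: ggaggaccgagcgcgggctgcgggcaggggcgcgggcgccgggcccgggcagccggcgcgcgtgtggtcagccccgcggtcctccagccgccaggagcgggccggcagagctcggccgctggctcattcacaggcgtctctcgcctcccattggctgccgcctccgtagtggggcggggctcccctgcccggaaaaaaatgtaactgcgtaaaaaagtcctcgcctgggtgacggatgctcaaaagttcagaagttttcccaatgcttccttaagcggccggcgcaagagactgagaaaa
Of these windows the one of *Meox2* held 1 E-box and those of *Twist1* and *Foxc1* held 0. Over the 5 members with a window 3 held an E-box (*Meox2*, *Uncx* and *Nkx3-2*), against 72.3% of all 32851 windows. The letters GCGTGAC of a Pax core (2.09% of all windows), GACCACCCA of a Gli core (0.253%) and GTAAACA of a forkhead core (3.65%) stood in 0 of the 5. No promoter is shown for *Meox1*, *Foxc2* and *Tcf15*.

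Before the genes are compared, 3 features of the arrays matter. Between 42.2% and 50.6% of probes were detected per array, at 42.2% to 44.2% on chips 1 and 2 and at 45.4% to 50.6% on chips 3, 4 and 5. All arrays of both compound mutants lie on chip 1 and all EGFP(-) and *Pax1+/-* arrays on chips 3 to 5, and only *Pax1-/-* and *Pax1 WT:+/EGFP* occur on both sets of chips. *Pax1* itself stood at 11.23 ± 0.20 in *Pax1 WT:+/EGFP* cells (SD, n = 5), against 8.57, 7.66 and 4.71 in EGFP(-) replicates 1, 2 and 3, so that 2 of the 3 EGFP(-) replicates held *Pax1* RNA well above the third (levels here are log2 of the normalized intensity). It was 10.94 ± 0.10 in *Pax1-/-* cells (n = 5), and *Pax9* was at 6.85, 4.73 and 4.77 in *Pax1-/-Pax9-/-* replicates 1, 2 and 3, at 6.94, 6.61 and 6.58 in *Pax1-/-Pax9+/-* replicates and at 6.97 ± 0.41 in *Pax1-/-* cells. *Pax1-/-Pax9-/-* replicate 1 thus had *Pax9* within the range of *Pax1-/-Pax9+/-* and apart from the other replicates of its own label, so that calls of the 8 genes in this genotype are also given without it. The position of these probes relative to the EGFP insertions was not known, so their levels could not check the genotype. Replicate names that recur on 2 chips were averaged, and in one such pair, *Pax1-/-* replicate 3, *Xist* was at 4.52 on one array and at 8.82 on the other, so that these arrays need not share embryos.

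**Figure D1:**
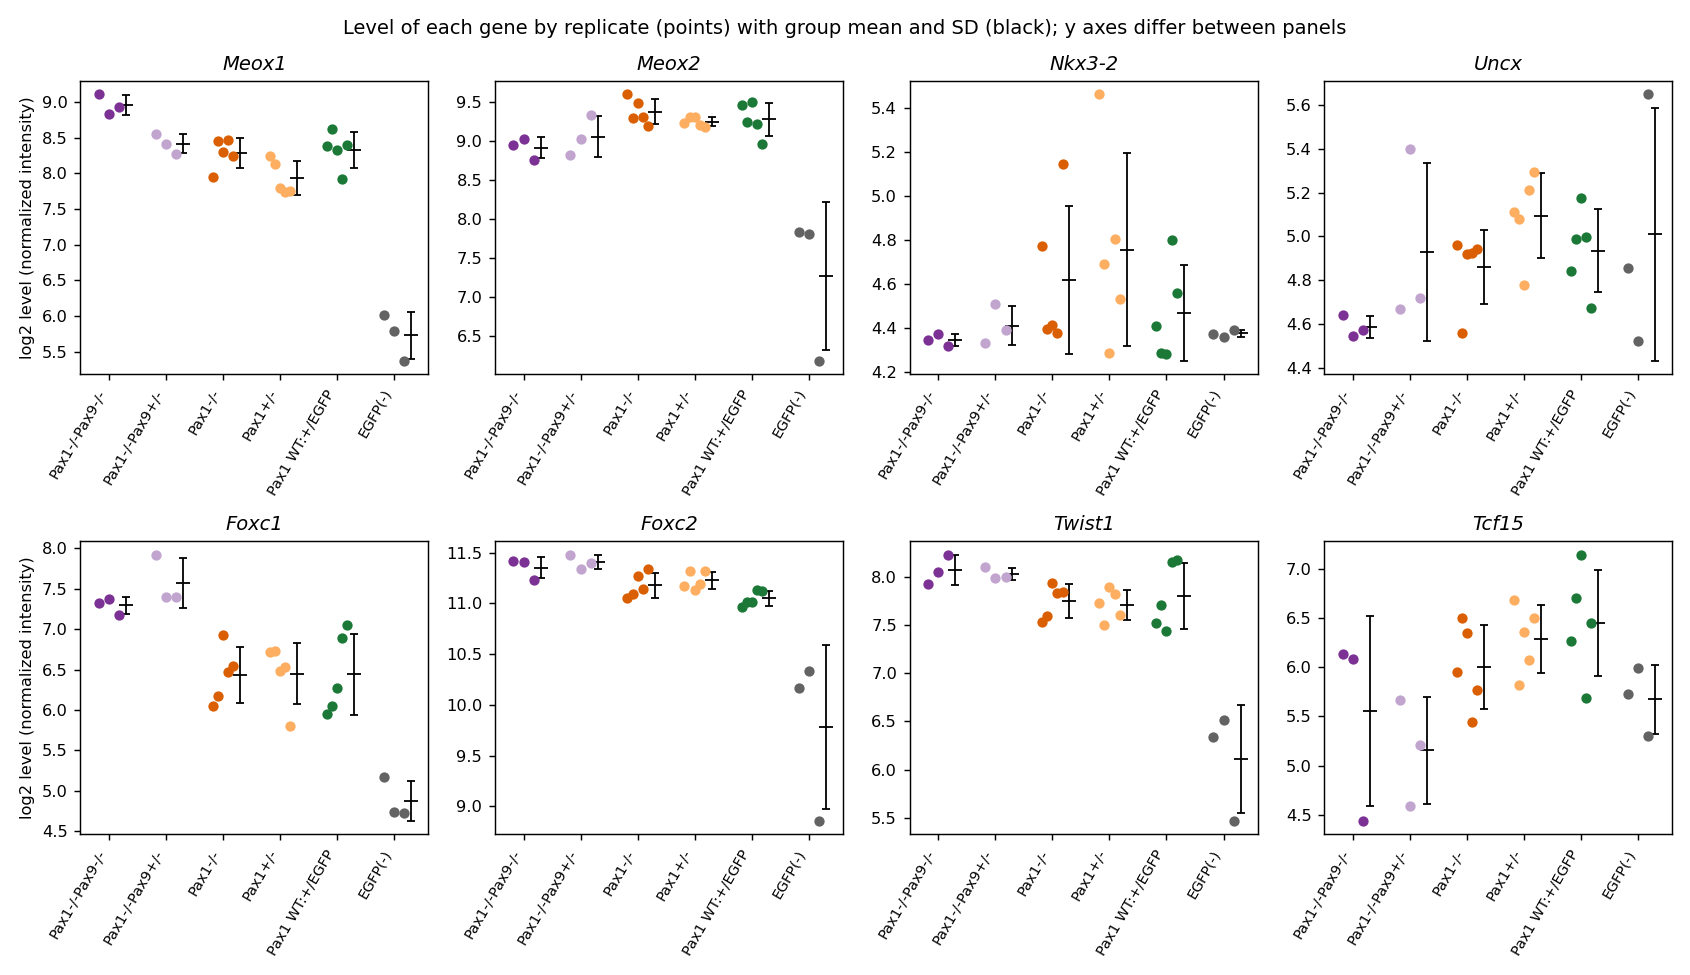
Level of each of the 8 genes (y axis, log2 of the normalized intensity, scaled per panel) in each replicate (points) of 6 groups (x axis), with the mean and SD of the group in black. *Meox1*, *Meox2*, *Foxc1*, *Foxc2* and *Twist1* lie lowest in the 3 EGFP(-) replicates, and *Nkx3-2* and *Uncx* lie between 4.28 and 5.65 in all groups.

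EGFP(+) cells were set against EGFP(-) cells in 3 genotypes to ask which of these factors mark the *Pax1* domain. The 5 genes *Meox1*, *Meox2*, *Foxc1*, *Foxc2* and *Twist1* were higher in EGFP(+) cells in each genotype, by 2.40-fold to 6.08-fold, and *Tcf15*, *Nkx3-2* and *Uncx* were called in none. A call here means that limma, fitted over all genes, gave a fold change of 1.5 or more in either direction with a Benjamini-Hochberg adjusted p below 0.05. Thus 5 of 8 were called higher in *Pax1-/-* cells, where 7.54% of all genes were, 5 of 8 in *Pax1+/-* cells (8.20% of all genes) and 5 of 8 in *Pax1 WT:+/EGFP* cells (7.25%). The replicates of the compared groups did not overlap for the same 5 genes in each comparison. This held for 24.5% of all genes with *Pax1-/-*, for 24.5% with *Pax1+/-* and for 19.8% with *Pax1 WT:+/EGFP*. The 3 comparisons share their EGFP(-) replicates.

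*Meox1* showed the largest difference of the 8 genes. Its levels were 7.95, 8.45, 8.30, 8.46 and 8.24 in *Pax1-/-* replicates, 8.24, 8.14, 7.80, 7.73 and 7.76 in *Pax1+/-*, 8.39, 8.62, 8.32, 7.93 and 8.40 in *Pax1 WT:+/EGFP*, and 6.02, 5.79 and 5.37 in EGFP(-) replicates. Every EGFP(+) replicate was thus above every EGFP(-) replicate, and *Meox1* was detected on all 28 arrays. The log2 fold change was 2.56 in *Pax1-/-* (SE 0.18, adjusted p = 1.2e-08), 2.21 in *Pax1+/-* (adjusted p = 5.6e-08) and 2.60 in *Pax1 WT:+/EGFP* (SE 0.18, adjusted p = 8.3e-09). On the linear scale these are 5.88-fold, 4.61-fold and 6.08-fold.

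*Meox2* was higher by 2.10 on the log2 scale in *Pax1-/-* cells (adjusted p = 1.1e-05) and by 1.97 in *Pax1+/-* cells, and in *Pax1 WT:+/EGFP* cells it was 4.01-fold higher (SE of the log2 fold change 0.26, adjusted p = 1.7e-05). Its levels were 9.59, 9.29, 9.49, 9.31 and 9.19 in *Pax1-/-*, 9.23, 9.30, 9.31, 9.21 and 9.17 in *Pax1+/-*, 9.46, 9.25, 9.49, 9.22 and 8.96 in *Pax1 WT:+/EGFP*, and 7.83, 7.80 and 6.18 in EGFP(-) replicates. The EGFP(+) replicates lay close together, whereas EGFP(-) replicate 3 stood far below the other two of its group. Without that replicate the difference in *Pax1 WT:+/EGFP* cells was 1.46 and was still called.

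Both forkhead genes were higher in EGFP(+) cells. *Foxc1* was at 6.05, 6.17, 6.93, 6.47 and 6.54 in *Pax1-/-*, at 6.71, 6.73, 6.48, 6.53 and 5.81 in *Pax1+/-*, at 5.96, 6.05, 6.27, 6.90 and 7.05 in *Pax1 WT:+/EGFP*, and at 5.17, 4.74 and 4.72 in EGFP(-) replicates. It was detected on 1 of the 3 EGFP(-) arrays and on every EGFP(+) array, so that its fold is set against levels at or near background. The log2 fold change was 1.56 in *Pax1-/-* (adjusted p = 0.00031), 1.57 in *Pax1+/-* (adjusted p = 0.00023) and 1.57 in *Pax1 WT:+/EGFP* (SE 0.27, adjusted p = 0.00027). In *Pax1 WT:+/EGFP* cells it was 0.75 on the authors' log2 values and 2.74 with floored signals, called in both, so that its size moved with the processing. *Foxc2* was at 11.05, 11.09, 11.27, 11.14 and 11.34 in *Pax1-/-*, at 11.17, 11.32, 11.13, 11.19 and 11.32 in *Pax1+/-*, at 10.96, 11.01, 11.02, 11.13 and 11.13 in *Pax1 WT:+/EGFP*, and at 10.16, 10.33 and 8.85 in EGFP(-) replicates. The spread among EGFP(+) replicates was small and EGFP(-) replicate 3 again lay lowest. The differences were 1.39 in *Pax1-/-*, 1.44 in *Pax1+/-* and 1.27 in *Pax1 WT:+/EGFP* (SE 0.22, adjusted p = 0.00035), and the last was 0.80, still called, without EGFP(-) replicate 3.

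*Twist1* was at 7.53, 7.59, 7.94, 7.84 and 7.84 in *Pax1-/-*, at 7.73, 7.51, 7.89, 7.83 and 7.60 in *Pax1+/-*, at 7.53, 7.71, 7.44, 8.16 and 8.17 in *Pax1 WT:+/EGFP*, and at 6.34, 6.52 and 5.46 in EGFP(-) replicates. The difference was 1.64 in *Pax1-/-*, 1.60 in *Pax1+/-* and 1.70 in *Pax1 WT:+/EGFP* cells (SE 0.22, adjusted p = 1.3e-05), about 3.24-fold in the last. As with *Meox1*, *Meox2* and *Foxc2*, the lowest EGFP(-) value was that of replicate 3, which also had the least *Pax1* RNA of the 3 (4.71). For *Foxc1* replicates 2 and 3 were nearly equal, at 4.74 and 4.72, at or near background. *Tcf15*, which was not called, was lowest in replicate 3 as well (5.30). The part of the *Pax1* RNA in EGFP(-) replicates 1 and 2 in these differences was not tested.

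*Tcf15*, the bHLH factor of somite epithelium, was at 5.95, 6.50, 6.35, 5.44 and 5.77 in *Pax1-/-*, at 6.69, 5.82, 6.36, 6.08 and 6.50 in *Pax1+/-*, at 6.27, 6.71, 7.15, 5.68 and 6.45 in *Pax1 WT:+/EGFP*, and at 5.73, 5.99 and 5.30 in EGFP(-) replicates. The groups overlapped in each comparison. Its difference from EGFP(-) cells was 0.33 in *Pax1-/-* (SE 0.29, adjusted p = 0.49), 0.62 in *Pax1+/-* (adjusted p = 0.15) and 0.78 in *Pax1 WT:+/EGFP* (SE 0.29, adjusted p = 0.068). Without *Pax1 WT:+/EGFP* replicate 5, whose 2 arrays gave 5.02 and 6.35, the last became 0.97 and was called.

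*Nkx3-2* and *Uncx* were not well above background in most samples, so that no fold is given for them. The kept *Nkx3-2* probe was detected on 3 of 28 arrays, 1 each of *Pax1-/-*, *Pax1+/-* and *Pax1 WT:+/EGFP*, and the other on 2 of 28. Its group means ran between 4.34 and 4.75, below the lowest level at which any probe counted as detected on these arrays (4.84 to 5.15). The *Uncx* probes were detected on 12 and 11 of 28 arrays. In *Pax1+/-* cells they disagreed, since one was detected on all 5 arrays and the other on 2 of 5. In *Pax1-/-Pax9-/-* cells both *Uncx* probes were detected on 0 of 3 arrays. A difference in either gene was not detectable at this signal.

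**Figure D2:**
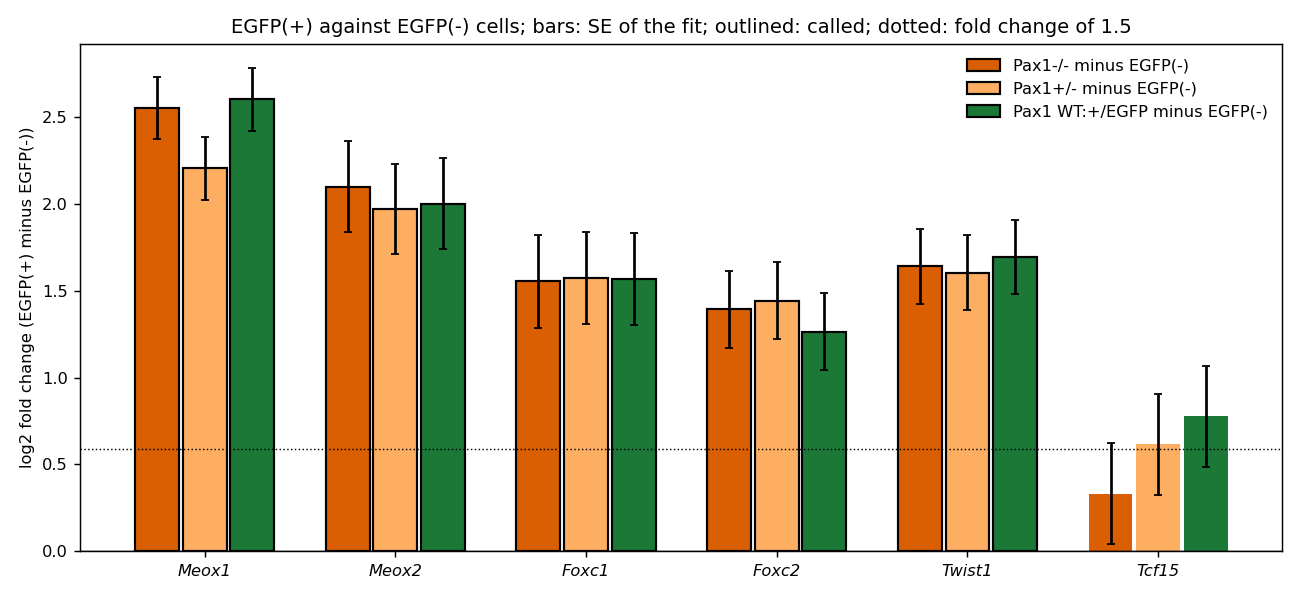
Log2 fold change of EGFP(+) over EGFP(-) cells (y axis) for the 6 genes other than *Nkx3-2* and *Uncx* (x axis) in 3 genotypes (bars), with the SE of the fit; outlined bars are called and the dotted line marks a fold change of 1.5. The outlined bars of *Meox1*, *Meox2*, *Foxc1*, *Foxc2* and *Twist1* lie between 1.27 and 2.60 in all 3 genotypes.

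Each of chips 3, 4 and 5 holds 1 EGFP(-) array, so the same differences can be read within a chip. *Meox1* was higher within each chip and genotype, by 1.93 to 3.04, and *Meox2* by 1.43 to 3.20. The differences of *Foxc2* in *Pax1 WT:+/EGFP* cells were 0.68 on chip 3, 2.40 on chip 4 and 0.80 on chip 5, and those of *Twist1* were 1.06, 2.45 and 1.19, so that both were largest on chip 4, the chip of EGFP(-) replicate 3. For *Foxc1* they were 1.41, 1.59 and 0.79. These are values against a single EGFP(-) array, whose spread cannot be measured within a chip, so that sizes alone are given.

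EGFP(-) cells were a mixed population. Of the marker lists of other cell types, 6 of 7 erythroid genes, 9 of 9 of macrophages, 9 of 9 of endothelium, 8 of 10 of neurons, 5 of 9 of skeletal muscle and 2 of 4 of neural crest were lower in *Pax1 WT:+/EGFP* than in EGFP(-) cells, and 0 were higher. Over all 13373 genes 1222 were called lower and 970 higher in that comparison. The mean level over the erythroid list ran from 5.41 to 7.82 in *Pax1 WT:+/EGFP* and from 10.62 to 10.77 in EGFP(-) replicates, over the macrophage list from 4.56 to 5.46 and from 7.15 to 8.35, and over the neuron list from 5.77 to 6.42 and from 7.43 to 7.68. For endothelium it ran from 4.82 to 5.54 in *Pax1 WT:+/EGFP* and from 6.23 to 7.59 in EGFP(-) replicates, for skeletal muscle from 5.75 to 6.74 and from 6.92 to 7.42, and for neural crest from 5.73 to 7.18 and from 7.33 to 8.21. EGFP(+) cells also held RNA of these lists, to an extent that differed between lists. In *Pax1-/-*, *Pax1+/-* and *Pax1 WT:+/EGFP* cells 6 of 10 muscle genes were detected on every array of each genotype. Of 10 endothelial genes 5, 2 and 2 were, in that order, and of 9 macrophage genes 1, 0 and 0. The counts were 3, 3 and 2 of 7 erythroid, 6, 7 and 6 of 10 neuron and 3, 3 and 2 of 5 neural crest genes on the array. Detected on no array were 1 of 10 muscle genes in each genotype (*Myod1*), and 1, 3 and 2 of 10 endothelial genes, *Cdh5* among them. The same held for 0, 4 and 1 of 9 macrophage genes. In *Pax1-/-* cells 6 of 7 erythroid, 9 of 9 macrophage, 6 of 9 endothelial, 9 of 10 neuron, 1 of 9 muscle and 2 of 4 neural crest genes were lower than in EGFP(-) cells, and in *Pax1+/-* cells 7 of 7, 9 of 9, 9 of 9, 8 of 10, 6 of 9 and 2 of 4. Over all 13373 genes 1169 were called lower in *Pax1-/-* cells and 1292 in *Pax1+/-* cells. The part of this mixture in the differences of the 8 genes was not tested. Of the list of vertebral mesenchyme, with *Pax1*, *Pax9*, *Col2a1* and *Sox9*, 8 of 8 genes were higher in EGFP(+) cells of each genotype. The sort was by EGFP from the *Pax1* locus, so that the rise of *Pax1* is not independent of it.

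Other genes of the somite gave a background for these factors. The sclerotome regulators tested include *Pax1*, the locus of the sort, and *Pax9*. Their median log2 fold change in *Pax1 WT:+/EGFP* against EGFP(-) cells was 0.92, beside 0.06 over all genes. In this comparison 14 of 20 were higher and 0 lower. By adjusted p they were led by *Pax9*, at least 3.30-fold higher (detected on no EGFP(-) array, adjusted p = 1.6e-06), *Pax1* (4.26, adjusted p = 6.0e-06), *Sox5*, a cofactor of Sox9 in chondrogenesis (1.02, adjusted p = 6.5e-05), and the forkhead gene *Foxd1* (2.20, adjusted p = 0.00020). Among 12 partners of bHLH and homeobox factors, *Id1* (1.41) and *Id2* (1.05), inhibitors of bHLH dimers, rose and 0 fell. Of 10 genes of dermomyotome and myotome 6 fell, among them *Lbx1* of migrating muscle precursors (-4.16) and the myogenic factors *Myf5* (-1.62) and *Myog* (-1.06), while *Six4* rose by 0.97. Of 8 segmentation genes 3 fell, the Notch pathway genes *Dll3* (-3.80), *Lfng* (-1.30) and *Notch1* (-1.22), and *Hes1* rose by 1.58.

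The loss of *Pax1* alone was then set against *Pax1 WT:+/EGFP*, within EGFP(+) cells. None of the 8 genes was called with 1 or both *Pax1* alleles lost. In *Pax1+/-* against *Pax1 WT:+/EGFP* 0 of 8 were called, where 0.419% of all genes were, and 2 had an unadjusted p under 0.05. These were *Meox1*, 0.40 lower in *Pax1+/-* (-0.40, SE 0.14, adjusted p = 0.20), and *Foxc2*, 0.18 higher (SE 0.08, adjusted p = 0.35). The *Foxc2* replicates did not overlap, at 11.13 to 11.32 in *Pax1+/-* and 10.96 to 11.13 in *Pax1 WT:+/EGFP*, as was the case for 2.43% of all genes. They nearly touched, however. The highest *Pax1 WT:+/EGFP* value was that of replicate 5, whose arrays gave 11.00 on chip 2 and 11.26 on chip 4, so that by array the groups overlapped. In *Pax1-/-* against *Pax1 WT:+/EGFP* 0 of 8 were called (0.224% of all genes) and 0 had an unadjusted p under 0.05, the largest value being that of *Tcf15* (-0.45, SE 0.32, adjusted p = 0.72). The methods' t-test also gave 0 of 8, with and without adjustment. In *Pax1-/-* against *Pax1+/-* 0 of 8 were called (0.269%), and only *Meox1* had an unadjusted p under 0.05 (0.35, SE 0.14, adjusted p = 0.40).

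With *Pax9* alleles lost as well, *Foxc1*, *Meox1* and *Tcf15* were called. *Foxc1* was higher in both compound mutants, by 1.80-fold to 2.20-fold against *Pax1-/-* and *Pax1 WT:+/EGFP*, *Meox1* was higher in *Pax1-/-Pax9-/-* by 1.54-fold to 1.59-fold, and *Tcf15* was lower in *Pax1-/-Pax9+/-* than in *Pax1 WT:+/EGFP*. In each of these comparisons genotype goes with the chip, and none of the calls was kept with the set of chips as a block or on chips 1 and 2 alone. The counts were 2 of 8 in *Pax1-/-Pax9-/-* against *Pax1 WT:+/EGFP*, where 7.00% of all genes were called, and 2 of 8 against *Pax1-/-* (9.68%). In *Pax1-/-Pax9+/-* they were 2 of 8 against *Pax1 WT:+/EGFP* (4.76%) and 1 of 8 against *Pax1-/-* (8.12%). Replicates did not overlap for 4 of 8 genes in *Pax1-/-Pax9-/-* against *Pax1 WT:+/EGFP* (13.1% of all genes) and 4 of 8 against *Pax1-/-* (24.3%). These counts include *Uncx* against *Pax1 WT:+/EGFP* and *Nkx3-2* against *Pax1-/-*, both near background and detected on no *Pax1-/-Pax9-/-* array. In *Pax1-/-Pax9+/-* it was 3 of 8 against *Pax1 WT:+/EGFP* (11.7%) and 3 of 8 against *Pax1-/-* (24.1%). Both compound mutants share these comparison groups.

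*Foxc1* was at 7.33, 7.38 and 7.18 in *Pax1-/-Pax9-/-* and at 7.92, 7.40 and 7.39 in *Pax1-/-Pax9+/-* replicates, all above every replicate of *Pax1-/-* (6.05 to 6.93) and *Pax1 WT:+/EGFP* (5.96 to 7.05). The log2 fold change was 0.85 in *Pax1-/-Pax9-/-* against *Pax1 WT:+/EGFP* (SE 0.26, adjusted p = 0.042) and 0.86 against *Pax1-/-* (adjusted p = 0.030), and in *Pax1-/-Pax9+/-* it was 1.13 (adjusted p = 0.016) and 1.14 (adjusted p = 0.0087) against the same groups. By array, however, *Foxc1* in *Pax1 WT:+/EGFP* cells was at 7.05 and 7.48 on chip 2 and at 5.96 to 6.31 on chips 3, 4 and 5. In *Pax1-/-* cells the array of replicate 3 on chip 2 lay above every *Pax1-/-Pax9-/-* replicate. It also lay between *Pax1-/-Pax9+/-* replicates 2 and 1 (7.40 and 7.92), so that by array *Pax1-/-* overlapped both compound mutants. The array of the same name on chip 3 was at 6.36, and all *Pax1-/-* arrays but the one on chip 2 were at 5.75 to 6.60. The arrays named *Pax1 WT:+/EGFP* replicate 5 gave 7.48 on chip 2 and 6.31 on chip 4, so that arrays of one replicate name differed between chips by as much as the genotypes did. On chips 1 and 2 alone the difference from *Pax1 WT:+/EGFP* was 0.02 in *Pax1-/-Pax9-/-* (adjusted p = 0.99) and 0.30 in *Pax1-/-Pax9+/-* (adjusted p = 0.88), and from *Pax1-/-* it was 0.47 and 0.75 (adjusted p = 0.41 and 0.29). With the set of chips as a block the 4 values were 0.24, 0.52, 0.33 and 0.61 in the same order. Without *Pax1-/-Pax9+/-* replicate 1, the highest of all, *Foxc1* was no longer called in that genotype (0.95 and 0.96 against *Pax1 WT:+/EGFP* and *Pax1-/-*). In *Pax1-/-Pax9-/-* it was lost without any one of its replicates, at 0.81 to 0.92 (without replicate 1, which stood apart in *Pax9*, 0.83 against *Pax1 WT:+/EGFP* and 0.85 against *Pax1-/-*), and without *Pax1 WT:+/EGFP* replicate 2, 3 or 4 (0.73, 0.75 and 0.81), *Pax1-/-* replicate 1 or 2 (0.77 and 0.80 against *Pax1-/-*), or replicate 4 of *Pax1-/-* or of *Pax1+/-*, which left it at 0.85 against *Pax1 WT:+/EGFP* (adjusted p = 0.051 and 0.052).

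*Meox1* was at 9.11, 8.84 and 8.93 in *Pax1-/-Pax9-/-* and at 8.55, 8.42 and 8.28 in *Pax1-/-Pax9+/-* replicates. The *Pax1-/-Pax9-/-* replicates lay above those of all other groups, including *Pax1 WT:+/EGFP*, whose highest was 8.62. The highest, 9.11, was replicate 1, whose *Pax9* was at 6.85, and the part of that replicate's *Pax9* level in these values was not tested. The log2 fold change in *Pax1-/-Pax9-/-* was 0.62 against *Pax1 WT:+/EGFP* (SE 0.16, adjusted p = 0.018) and 0.67 against *Pax1-/-* (SE 0.16, adjusted p = 0.0084). Neither was called within chips 1 and 2, where they were 0.68 (adjusted p = 0.090) and 0.55 (adjusted p = 0.086), with the set of chips as a block, 0.64 (adjusted p = 0.11) and 0.58 (adjusted p = 0.098), with array medians centred, 0.41 and 0.39, or with chip as a random block, 0.70 and 0.63. On the authors' log2 values they were 0.54 and 0.58, under a fold change of 1.5 (adjusted p = 0.0090 and 0.0039). The call against *Pax1 WT:+/EGFP* was also lost with the replicate number as a block (0.54) and with only both groups in the fit (0.62, adjusted p = 0.11). The call against *Pax1-/-* was kept without any one replicate, at 0.60 without *Pax1-/-Pax9-/-* replicate 1, whereas that against *Pax1 WT:+/EGFP* was lost without *Pax1-/-Pax9-/-* replicate 1 (0.55, adjusted p = 0.073) or 3 (0.64, adjusted p = 0.060) or *Pax1 WT:+/EGFP* replicate 5 (0.52, under a fold change of 1.5). In *Pax1-/-Pax9+/-* the differences were 0.08 and 0.13, both not called.

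*Tcf15* was at 6.14, 6.09 and 4.43 in *Pax1-/-Pax9-/-* and at 5.67, 4.58 and 5.21 in *Pax1-/-Pax9+/-* replicates. It was detected on 2 of 3 arrays in each, so that the lowest values are near background. Against *Pax1 WT:+/EGFP* (5.68 to 7.15) it fell by 1.30 in *Pax1-/-Pax9+/-* (SE 0.37, adjusted p = 0.040), and the difference was -0.90 in *Pax1-/-Pax9-/-* (SE 0.37, adjusted p = 0.12). On chips 1 and 2 alone these were -0.58 and -0.18. The *Pax1-/-Pax9+/-* and *Pax1 WT:+/EGFP* replicates did not overlap but nearly touched, at 5.67 and 5.68. The latter was *Pax1 WT:+/EGFP* replicate 5, whose arrays gave 5.02 on chip 2 and 6.35 on chip 4, so that by array these groups overlapped. The call was lost without replicate 1, 2 or 3 of *Pax1-/-Pax9+/-* (-1.55, -1.01 and -1.33) and without replicate 2, 3 or 4 of *Pax1 WT:+/EGFP* (-1.34, -1.23 and -1.12). Arrays of one replicate name also differed for *Tcf15*, with 7.15 and 5.55 in *Pax1-/-* replicate 3.

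**Figure D3:**
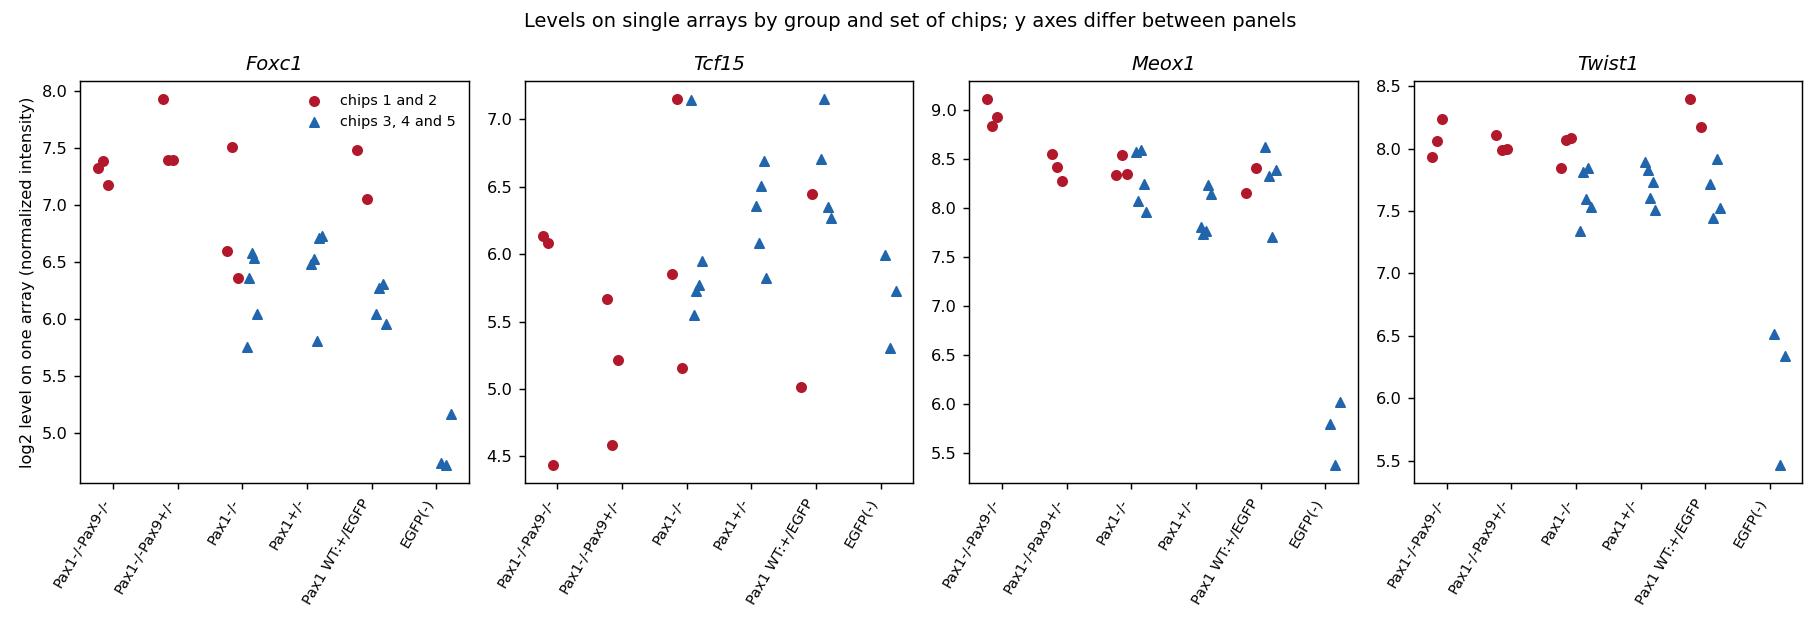
Level on single arrays (y axis, log2 of the normalized intensity, scaled per panel) of *Foxc1*, *Tcf15*, *Meox1* and *Twist1* by group (x axis), with arrays of chips 1 and 2 as circles and of chips 3, 4 and 5 as triangles. The *Foxc1* circles of *Pax1 WT:+/EGFP* (7.05 and 7.48) lie above its triangles (5.96 to 6.31), whereas the *Meox1* circles of *Pax1-/-Pax9-/-* (8.84 to 9.11) lie above both symbols of the other groups.

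The remaining genes moved less. *Foxc2* was higher in *Pax1-/-Pax9+/-* than in *Pax1 WT:+/EGFP* by 0.36 (SE 0.10, adjusted p = 0.033) and in *Pax1-/-Pax9-/-* by 0.30 (adjusted p = 0.051), both under a fold change of 1.5. Its replicates were at 11.48, 11.34 and 11.40 in *Pax1-/-Pax9+/-* and at 11.42, 11.41 and 11.23 in *Pax1-/-Pax9-/-*, above every *Pax1 WT:+/EGFP* replicate (10.96 to 11.13). On chips 1 and 2 alone the differences were 0.34 and 0.29, not past the threshold. *Meox2* was at 8.95, 9.03 and 8.76 in *Pax1-/-Pax9-/-*, below every *Pax1-/-* replicate (9.19 to 9.59), with a log2 fold change of -0.46 (SE 0.13, adjusted p = 0.027), again under a fold change of 1.5, and -0.48 without *Pax1-/-Pax9-/-* replicate 1 (adjusted p = 0.057). It was -0.23 on chips 1 and 2 alone (adjusted p = 0.49). *Twist1* differed by 0.27 in *Pax1-/-Pax9-/-* and by 0.23 in *Pax1-/-Pax9+/-* from *Pax1 WT:+/EGFP*, and by -0.21 and -0.25 on chips 1 and 2 alone, none of them called.

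**Figure D4:**
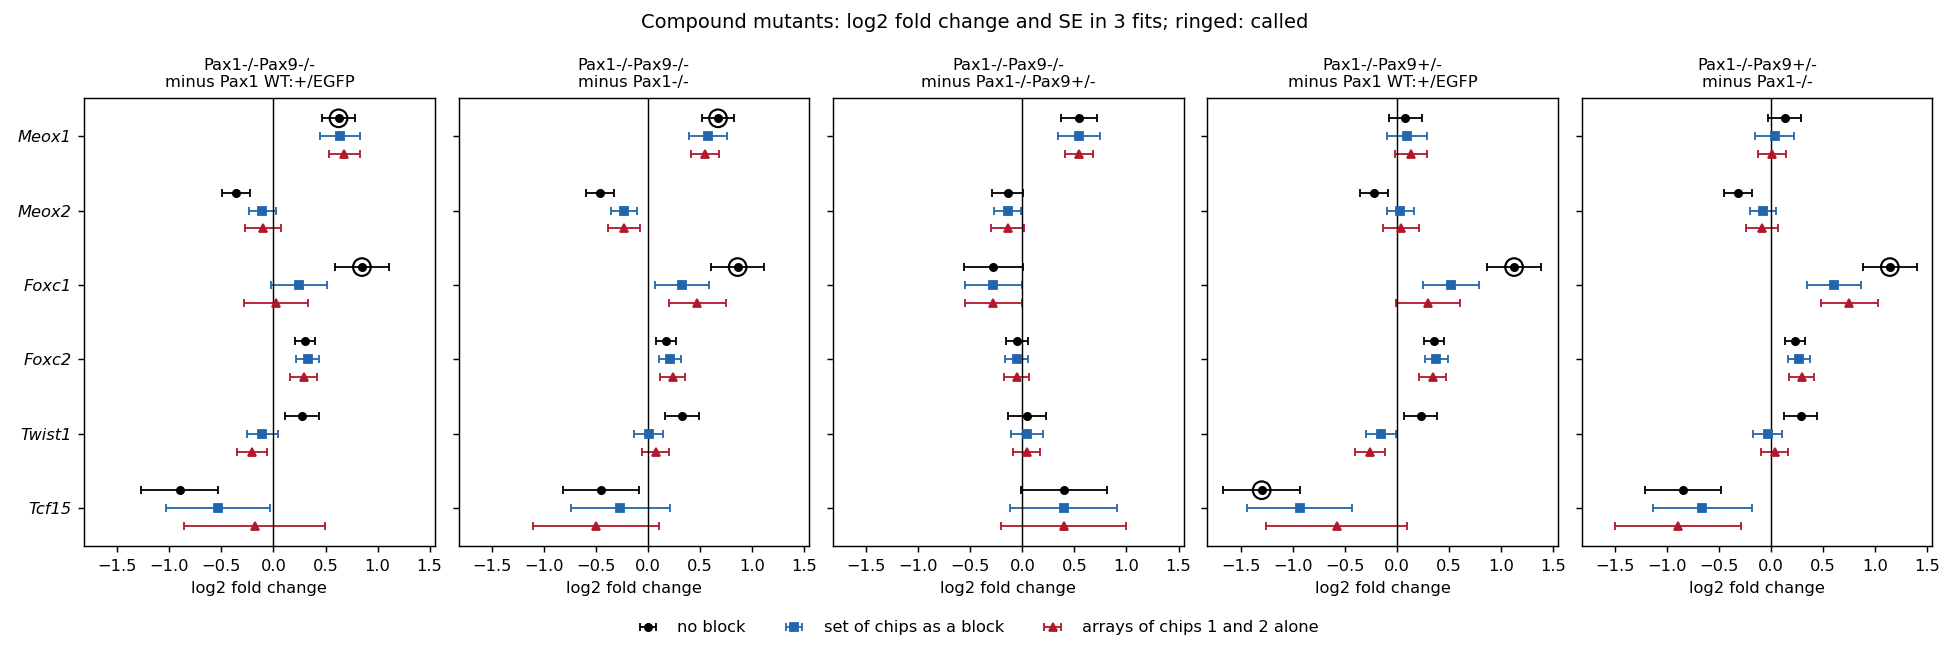
Log2 fold change with its SE (x axis) of the 6 genes other than *Nkx3-2* and *Uncx* (y axis) in 5 comparisons of the compound mutants (panels), without a block, with the set of chips as a block and on the arrays of chips 1 and 2 alone; rings mark called values. In *Pax1-/-Pax9-/-* against *Pax1 WT:+/EGFP*, *Meox1* lies at 0.62, 0.64 and 0.68 and *Foxc1* at 0.85, 0.24 and 0.02, and both are called only without a block.

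The compound mutants could be compared with each other on 1 chip, which addresses the last *Pax9* copy. Of the 8 genes 0 were called in *Pax1-/-Pax9-/-* against *Pax1-/-Pax9+/-*, where 0.314% of all genes were, and *Meox1* had an unadjusted p under 0.05. It was 0.54 higher in *Pax1-/-Pax9-/-* (SE 0.18, adjusted p = 0.27), 1.46-fold, with replicates at 8.84 to 9.11 against 8.28 to 8.55, which did not overlap. Without *Pax1-/-Pax9-/-* replicate 1 the difference was 0.47 (adjusted p = 0.46). Of the 8 genes 3 did not overlap, where 15.3% of all genes did not, namely *Meox1*, *Uncx*, which was near background, and *Foxc1*. *Foxc1* was at 7.18 to 7.38 in *Pax1-/-Pax9-/-* and 7.39 to 7.92 in *Pax1-/-Pax9+/-* (-0.28, SE 0.29, adjusted p = 0.92), values that nearly touched. *Tcf15* differed by 0.40 (SE 0.41), *Meox2* by -0.14 (SE 0.15), *Foxc2* by -0.05 (SE 0.11) and *Twist1* by 0.04 (SE 0.18).

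Ordered by group mean, *Meox1* ran from *Pax1-/-Pax9-/-* (8.96 ± 0.14, SD, n = 3) through *Pax1-/-Pax9+/-* (8.41 ± 0.13), *Pax1 WT:+/EGFP* (8.33 ± 0.25), *Pax1-/-* (8.28 ± 0.21) and *Pax1+/-* (7.93 ± 0.24) to EGFP(-) (5.73 ± 0.33). *Pax1-/-Pax9+/-*, *Pax1 WT:+/EGFP* and *Pax1-/-* overlapped in this order, and the first and last groups stood apart from their neighbours. *Foxc1* ran from *Pax1-/-Pax9+/-* (7.57 ± 0.31) and *Pax1-/-Pax9-/-* (7.29 ± 0.11) to *Pax1+/-* (6.45 ± 0.38), *Pax1 WT:+/EGFP* (6.44 ± 0.50), *Pax1-/-* (6.43 ± 0.35) and EGFP(-) (4.88 ± 0.25), the 3 before the last being within 0.02 of each other. For *Meox2* the order was *Pax1-/-* (9.37 ± 0.16), *Pax1 WT:+/EGFP* (9.28 ± 0.21), *Pax1+/-* (9.24 ± 0.06), *Pax1-/-Pax9+/-* (9.05 ± 0.26), *Pax1-/-Pax9-/-* (8.91 ± 0.14) and EGFP(-) (7.27 ± 0.94), and neighbours among the EGFP(+) groups overlapped. *Foxc2* spanned 11.05 ± 0.08 in *Pax1 WT:+/EGFP* to 11.41 ± 0.07 in *Pax1-/-Pax9+/-*, and *Twist1* 7.71 ± 0.16 in *Pax1+/-* to 8.08 ± 0.15 in *Pax1-/-Pax9-/-*, with EGFP(-) at 9.78 ± 0.81 and 6.11 ± 0.56. *Tcf15*, which was missed on 3 of 28 arrays, had both compound mutants below EGFP(-) cells, with 5.16 ± 0.54 in *Pax1-/-Pax9+/-* and 5.55 ± 0.97 in *Pax1-/-Pax9-/-* against 5.67 ± 0.35 in EGFP(-), all overlapping.

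The wider lists of the somite were sclerotome regulators, partners, dermomyotome and segmentation. With *Pax1* alone lost they held 0 called genes in *Pax1-/-* (0.224% of all genes) and 0 in *Pax1+/-* (0.419%) against *Pax1 WT:+/EGFP*. With so few genes called at all, a count of 0 in short lists does not show that they were unchanged. In *Pax1-/-Pax9-/-* against *Pax1 WT:+/EGFP* genotype goes with the chip, and all list values of that comparison are given without a block. There 452 of all 13373 genes were called higher and 484 lower. Of 20 sclerotome regulators 2 rose and 4, the mutated *Pax1* included, fell. By adjusted p they were led by *Sox5* (-1.03, adjusted p = 0.00019), the bHLH gene *Sim2*, at least 3.53-fold lower and detected on no *Pax1-/-Pax9-/-* array (adjusted p = 0.00068), *Pax1* (-0.64) and the forkhead gene *Foxd2* (1.10). Of the partners 2 of 12 fell, *Tcf12*, which encodes an E protein that pairs with class II bHLH factors (-0.62, adjusted p = 0.0035), and the bHLH inhibitor *Id4* (-1.26, adjusted p = 0.0072). *Six4* (-0.66), *Notch1* (-1.06) and *Epha4* (0.80) were the called genes of dermomyotome and segmentation. On chip 1 alone, in *Pax1-/-Pax9-/-* against *Pax1-/-Pax9+/-*, 2 of 20 regulators fell, *Sim2*, at least 4.51-fold lower (adjusted p = 0.0017), and *Sox5* (-0.92, adjusted p = 0.0077), and 0 rose. Over all 13373 genes 25 were called lower and 17 higher on that chip. Of the vertebral mesenchyme list, which holds the mutated genes *Pax1* and *Pax9*, 5 of 8 genes fell in *Pax1-/-Pax9-/-* against *Pax1 WT:+/EGFP*. Its mean level, with *Pax1* and *Pax9* included, was 7.34 to 7.54 in *Pax1-/-Pax9-/-* and 7.79 to 8.40 in *Pax1 WT:+/EGFP* replicates. The part of this in the values of the 8 genes was not tested. Among markers of other cell types 1 of 9 endothelial genes was higher in that comparison, and 1 of 7 erythroid and 1 of 9 skeletal muscle genes were lower.

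For the 6 genes whose group means spanned at least 1 on the log2 scale, the genes most alike over the 24 replicates were found by the root mean square difference after each gene was centred on its mean. *Foxc2* was nearest to *Bgn* (0.18), *Reck* (0.19) and *Fbln1* (0.20), which encode the matrix proteoglycan biglycan, an inhibitor of matrix proteases and fibulin 1. *Twist1* was nearest to *L3hypdh* (0.20), *4930533K18Rik* (0.22) and *Fbln1* (0.22), and *Meox2* to *Scarf2* (0.20), *Igf1*, the insulin-like growth factor (0.21), and *Lypd6* (0.24). *Meox1* (*Hic1* 0.34, *Prkg2* 0.37, *Marveld1* 0.38), *Foxc1* (*Col8a2* 0.33, *A730008H23Rik* 0.35, *Fstl1* 0.36) and *Tcf15* (*Bad* 0.42, *9330151L19Rik* 0.42, *Scamp4* 0.45) had less close neighbours. Among these 6 genes the closest pair was *Foxc2* and *Twist1* (0.23), followed by *Meox2* and *Foxc2* (0.35), and *Tcf15* was farthest from *Foxc1* (1.12). These measures take in the difference between EGFP(+) and EGFP(-) cells and between sets of chips.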

How the data were processed

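Amplified (NuGEN Ovation V2) and biotin-labelled RNA of sorted E12.5 cells was hybridised to 28 arrays on 5 chips. The deposited intensity of 45281 probes was background subtracted in BeadStudio by the authors, without scaling between arrays, and comes with a deposited detection p-value per probe. The authors also deposited log2 values, quantile normalized in GeneSpring GX, which served only as an alternative. No array was left out here, although the study removed outlying arrays without naming them. Columns of per-sample values left unused numbered 0.

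With limma 3.58.1 (R 4.3.3, statmod 1.5.0), normexp correction informed by the detection p-values (offset 16) was followed by quantile normalization and log2. Detection at p below 0.05 on 3 or more arrays left 27688 probes, and probes of one gene were averaged. The platform annotation gave 34885 probes 1 symbol, 18 several and 10378 none. Arrays that shared genotype and replicate name became 1 of 24 replicates, which the labels call biological. The number of arrays limits the precision.

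Comparisons came from lmFit and eBayes with Benjamini-Hochberg adjustment over 13373 genes and no block. EGFP(-) cells were fitted with the 3 single-locus genotypes, and the 5 EGFP(+) genotypes together. Thresholds followed the study (adjusted p below 0.05, fold 1.5). For a gene detected on no array of a group, "at least" sets the brighter group's mean against, per array of the dimmer group, the larger of the gene's own level and the lowest level of a detected probe. The treatment text calls every sample EGFP(+), so EGFP(-) samples were taken from titles and genotype labels. The members and the gene lists were chosen with earlier results of these data known. Named are the 8 genes, up to 4 called genes per list by adjusted p, *Pax1*, *Pax9*, and 3 nearest genes of each member whose group means span at least 1. *Xist*, *Myod1*, *Cdh5*, *Col2a1* and *Sox9* are named as checks. Promoters are RefSeq windows (GRCm38.p6) matched by symbol for 5 of 8 genes.

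Alternatives were signals floored at 1, median centring, the authors' log2 values, no filter or a stricter one, the highest probe, arrays as single samples, chip, set of chips or replicate number as a block, chip as a random block, single chips and sets of chips, other groups in the fit, array weights, trend and robust estimation, the methods' test, adjusted p alone, and each replicate left out. The fit was tested on simulated data.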

Additional observations from a re-analysis of the deposited data

Results flagged for a closer look

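*Foxc1* in *Pax1+/-* replicate 5 was at 5.81, below the other 4 replicates of the group, of which the nearest was at 6.48. The gap was 0.731 of the range of the group (n = 5), above the critical value of Dixon's test. *Uncx* in *Pax1-/-* replicate 2 was at 4.56 with the nearest at 4.92, a gap of 0.898 of the range (n = 5), near background. Of 24 pairs of gene and group examined, 2 stood out in this way, and chance alone sets a small share of such pairs apart at this level. These pairs cover only *Pax1-/-*, *Pax1+/-* and *Pax1 WT:+/EGFP*, with 5 replicates each. EGFP(-) cells and both compound mutants, with 3 replicates each, were not examined in this way.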

How the results depend on the processing

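Of the 8 genes, 22 calls were made over the 11 comparisons and 940 alternatives to them were computed. In 853 the call stayed, in 87 it was lost and in 0 the direction turned. These totals hold alternatives that could not lose a call, namely adjusted p alone and leaving out a replicate that the fit did not use. They also hold fits within single chips, with 1 EGFP(-) array each. Leaving out a replicate lost no call against EGFP(-) cells. Every call of the compound mutants was lost without at least 1 replicate, except *Meox1* in *Pax1-/-Pax9-/-* against *Pax1-/-*. The counts of 0 in *Pax1-/-* and *Pax1+/-* against *Pax1 WT:+/EGFP*, *Pax1-/-* against *Pax1+/-*, and *Pax1-/-Pax9-/-* against *Pax1-/-Pax9+/-* were 0 under every alternative run. Replicate numbers did not pair the samples: over 46 pairs of one number the correlations of deviations ran from -0.183 to 0.144, with 1 above 0.1. With the replicate number as a block the comparison of *Pax1-/-Pax9-/-* with *Pax1 WT:+/EGFP* gave 1 of the 8 genes (*Foxc1*) in place of 2, and no other count moved by over 1.5 times.

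Against EGFP(-) cells 5 genes were called in each genotype. The only alternatives that lost any of these calls were the fits within single chips. Fewer arrays enter there, and the lone EGFP(-) array is assumed to vary like the other groups, so that no count is given. In *Pax1-/-Pax9+/-* against *Pax1 WT:+/EGFP* the 2 calls became 1 with floored signals, with centred medians and without a filter, and 0 with arrays as single samples, the set of chips as a block, chip as a random block, chips 1 and 2 alone, or only both groups in the fit. Leaving out a replicate gave 0 to 2, with 0 without *Pax1-/-Pax9+/-* replicate 1 and 1 without its replicates 2 and 3 or *Pax1 WT:+/EGFP* replicates 2, 3 and 4. In *Pax1-/-Pax9-/-* against *Pax1 WT:+/EGFP* the 2 calls became 1 with floored signals, no filter and single arrays, and 0 with centred medians, the authors' log2 values, the block of sets of chips, the random block, chips 1 and 2 alone, and only both groups. Leaving out a replicate gave 0 to 2, with 0 without *Pax1-/-Pax9-/-* replicates 1 and 3, and 1 without its replicate 2, *Pax1-/-* replicate 4, *Pax1+/-* replicate 4 or *Pax1 WT:+/EGFP* replicates 2 to 5. In *Pax1-/-Pax9+/-* against *Pax1-/-* the 1 call became 0 with the block of sets of chips, the random block, chips 1 and 2 alone, and 2 with array weights. Leaving out a replicate gave 0 to 1, with 0 only without *Pax1-/-Pax9+/-* replicate 1. In *Pax1-/-Pax9-/-* against *Pax1-/-* the 2 calls became 1 with floored signals, centred medians (*Meox2*, -0.74) and single arrays, and 0 with the authors' values, the block of sets of chips, the random block, and chips 1 and 2 alone. Leaving out a replicate gave 1 to 2, with 1 without any *Pax1-/-Pax9-/-* replicate or *Pax1-/-* replicates 1 and 2. The cause was not tested. Chip as a fixed block gave no value for the compound mutants against the other groups, which share no chip with them.

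Centred medians put the median of all genes at -0.11 to -0.14 in the compound mutants against *Pax1-/-* and *Pax1 WT:+/EGFP*, and turned the split of calls in *Pax1-/-Pax9-/-* against *Pax1-/-* to 223 higher and 1280 lower, beside 604 and 690, and against *Pax1 WT:+/EGFP* to 163 and 651, beside 452 and 484. In *Pax1-/-Pax9+/-* the splits were 205 and 834 beside 522 and 564 against *Pax1-/-*, and 101 and 210 beside 331 and 305 against *Pax1 WT:+/EGFP*. *Foxc1* in *Pax1 WT:+/EGFP* against EGFP(-) cells was 0.75 on the authors' log2 scale and 2.74 with floored signals, beside 1.57. The signals of *Nkx3-2* and *Uncx* lay too near background for any of these comparisons.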
